A study of Mus musculus with 8 samples.

Results

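The 8 arrays of the series carried 2 kinds of name in the authors' deposited table, a number (mv1, mv2, mv3 and mv4) or a letter (mvA, mvB, mvC and mvD), and the 4 letter-named arrays were compared here with the 4 number-named arrays. Every array held oocyte RNA of female ICR mice aged 8 weeks, an outbred strain, fed without phyto-oestrogens. The control arrays were mv1, mv2, mvC and mvD, from mice labelled as untreated. The BPS arrays were mv3, mv4, mvA and mvB, from mice given bisphenol S, an analogue of bisphenol A, by gavage for 7 days at a daily dose of 0.1 ng per g of body weight. The vehicle was 50% glycerol with 0.1% DMSO, and the labels name no vehicle for the controls. Each series of names thus held 2 control and 2 BPS arrays, so a difference between the series was estimated with treatment as a term in the fit. The labels do not say what the names stand for, how many oocytes or mice went into an array, or which maturation stage was collected, and the protocols speak of ovaries where the tissue field names oocytes.

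A growing oocyte stores large amounts of messenger RNA and becomes nearly silent in transcription before it resumes meiosis, so its later RNA content reflects storage, translation and decay of earlier transcripts. The oocyte also keeps many mitochondria, which serve the early embryo. It matures inside a coat of cumulus cells, a granulosa cell type that expresses hormone receptors, inhibins and, after the ovulatory signal, enzymes of the hyaluronan matrix. Genes of each of these programmes were therefore read beside the difference between the array series.

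Values below are log2 RMA signals of the array's probe sets, means are given with the SD over n = 4 arrays, and differences are letter-named minus number-named with their SE. A probe set passed where its limma adjusted p over all probe sets of the array was under 0.05. The background level was a log2 signal of 4.53, the 95th percentile of 1722 probe sets for Y-linked genes and olfactory and vomeronasal receptors, and 10236 probe sets had a mean over all 8 arrays above it. Because nothing in the labels says that arrays of one group came from separate pools of mice, p-values measure the spread between these arrays, which may be technical.

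The spread of the 8 arrays was unevenly shared among the contrasts they allow. The mean square over all probe sets was 0.0887 for the array series and 0.0741 for treatment, against 0.0252 to 0.0383 for the 4 pairs of arrays that shared both series and treatment. The mean square of the array series was 2.98 times the average of these pairs. The contrast of series by treatment, which asks whether the series differ by another amount in control than in BPS arrays, had a mean square of 0.00348, and the smallest of the 4 pair values was 7.25 times that. Its limma test passed 0 probe sets after Benjamini-Hochberg adjustment, and 21 probe sets (0.0609%) had an unadjusted p under 0.05, where uniform p-values would give 5%. The series difference was therefore nearly the same in control and in BPS arrays for most probe sets, and the values of the 2 treatments are not separate support for it. The sources used here do not say whether the authors adjusted the values before deposit. Since 1 of the 5 residual degrees of freedom carried almost no spread, the count over all probe sets and those of most lists with calls are also given with the spread taken within the 4 pairs of like arrays.

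**Figure D1:**
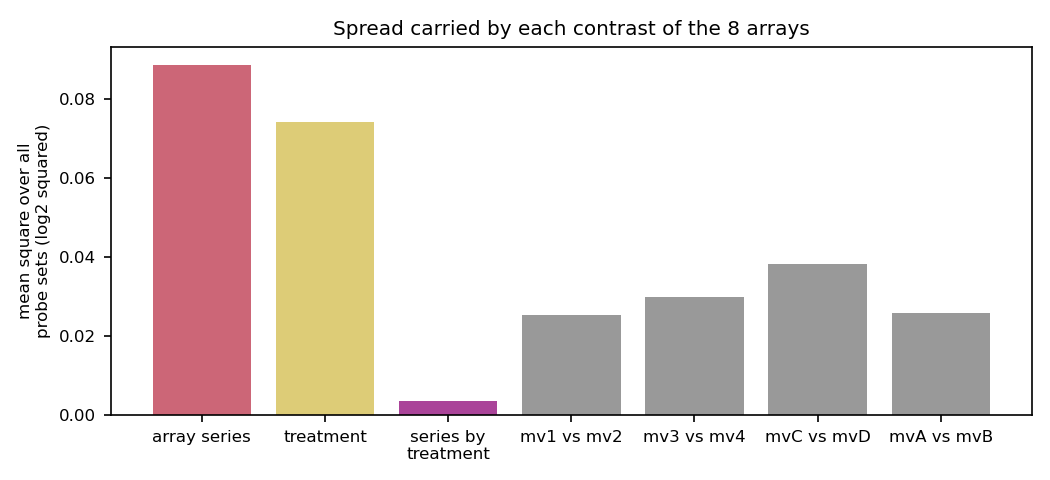
Mean square over all probe sets (log2 squared, vertical axis) of each of the 7 orthogonal contrasts of the 8 arrays, with the 4 pairs of like arrays in grey. The array series reached 0.0887 and treatment 0.0741, while series by treatment stood at 0.00348, below all 4 pairs.

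Arrays of the same series and treatment correlated at 0.967 to 0.98 over all probe sets, arrays that shared the series only at 0.965 to 0.982, and arrays that shared the treatment only at 0.965 to 0.975. Arrays that shared neither correlated at 0.941 to 0.967. The upper quartile of the log2 signals was 4.60, 4.65, 4.73 and 4.72 on mv1 to mv4, and 4.76, 4.75, 4.81 and 4.79 on mvC, mvD, mvA and mvB. All letter-named arrays lay above all number-named arrays (exact permutation test within treatment, two-sided p = 0.0556, the smallest p that its 36 arrangements allow). The number of probe sets above background was 9321, 9691, 10587 and 10307 on the number-named arrays and 10717, 10580, 10977 and 10719 on the letter-named arrays, and the ranges overlapped by 1 pair of arrays, mv3 and mvD (exact permutation p = 0.0556). Array medians were close, at 4.15 to 4.19 and 4.18 to 4.21.

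The letter-named arrays had more transcripts called higher than lower. In all 1899 probe sets passed, which is 5.51% of those tested, 1572 higher (4.56%) and 327 lower (0.949%) on letter-named arrays. With at least 1.5-fold 540 passed (1.57%), 436 higher and 104 lower, and with at least 2-fold 37 were higher and 33 lower. With the spread taken within pairs of like arrays 801 passed (2.32%), 657 higher (1.91%) and 144 lower. Leaving out 1 array gave 714 (without mv1) to 1716 (without mv2) calls. The 4 values of one series lay wholly outside those of the other for 2922 probe sets (8.48%).

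The split of the calls depended on the scale. Over the probe sets above background 72.8% had a positive difference and the median difference was 0.14, and after quantile normalization, which gives every array the same distribution, 50.5% were positive and the median was 0. The count after quantile normalization was 979, of which 537 were higher (54.9%) and 442 lower, against 82.8% higher on the deposited values. On the deposited values, the median of a list that lies mostly above background, or of its members above it, is therefore to be read against 0.14. Over all probe sets the median was 0.03, so the median of a list mostly below background is not to be read against 0.14. Of all probe sets, 587 passed on the deposited values, after quantile normalization and with the spread within pairs, 443 higher and 144 lower.

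**Figure D2:**
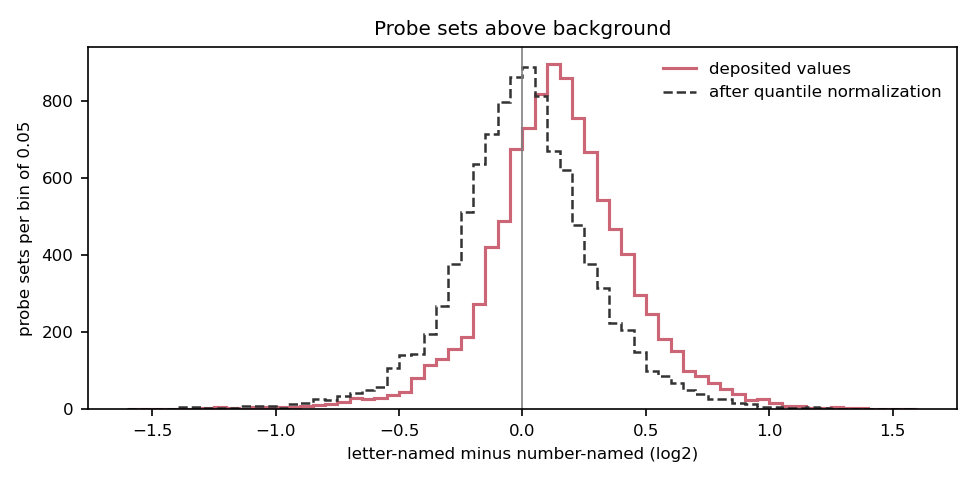
Number of probe sets above background (vertical axis, bins of 0.05) by letter-named minus number-named difference (log2, horizontal axis), on the deposited values (solid) and after quantile normalization (dashed). The deposited values have their median at 0.14 and the quantile-normalized ones at 0.

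Protein-coding genes were called higher at about the share of all probe sets above background, and lower at a smaller share. Of 7601 protein-coding probe sets above background, 940 were higher (12.4%, beside 12.3%) and 52 lower (0.684%, beside 1.62%). Over all 20448 protein-coding probe sets 1120 were higher, and 464 with the spread within pairs. The share of higher calls was 10.1% at mean log2 signals from the background level to 5, 16.1% from 5 to 6, and 8.85% above 9, so calls occurred at every signal level. The median genomic span was 17.41 kb for the higher genes, 22.29 kb for the lower genes and 26.89 kb for those that did not pass, with median log2 signals of 5.51, 5.88 and 5.49. Long noncoding RNAs above background had 52 of 259 higher (20.1%) and 3 lower. Small nuclear RNA genes above background, by gene type of the reference, had 12 of 171 higher (7.02%) and 11 lower (6.43%). Small nucleolar RNA genes by that type had 10 of 111 higher (9.01%) and 11 lower (9.91%). Over all probe sets above background the shares were 12.3% and 1.62%, so lower calls were more frequent in both types.

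The gene with the smallest p among higher calls was Hscb, a mitochondrial co-chaperone of iron-sulfur cluster assembly (chromosome 5, 110829070 to 110839793, GRCm38.p6). Its log2 signal was 6.47 and 6.63 on the number-named control arrays, 6.55 and 6.40 on the number-named BPS arrays, 7.48 and 7.46 on the letter-named control arrays, and 7.52 and 7.54 on the letter-named BPS arrays. The 2 series were separated by more than the range within either, whatever the treatment. The mean rose from 6.51 ± 0.10 to 7.5 ± 0.04 (SD, n = 4), a series difference of 0.99 ± 0.06 on the log2 scale (SE; limma adjusted p = 0.00339, and 0.0114 with the spread within pairs). Nt5c2, a cytosolic nucleotidase of purine metabolism (chromosome 19, 46885390 to 47015174), stood at 8.48, 8.54, 8.54 and 8.61 on mv1 to mv4 and at 9.21, 9.25, 9.44 and 9.33 on mvC, mvD, mvA and mvB. It too showed hardly any difference between control and BPS arrays of a series, and its series difference was 0.77 ± 0.05 (SE, limma adjusted p = 0.00339).

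Other higher genes differed by treatment as well as by series. Thoc1, a subunit of the THO complex of messenger RNA export (chromosome 18), measured 5.61 and 5.49 in number-named control arrays, 5.91 and 6.0 in number-named BPS arrays, 6.19 and 6.22 in letter-named control arrays, and 6.78 and 6.86 in letter-named BPS arrays. These 4 pairs formed 4 steps without overlap, and the series difference was 0.76 ± 0.06 (SE, limma adjusted p = 0.00466). Tesk1, a kinase that acts on the actin regulator cofilin (chromosome 4, 43442277 to 43448075), gave the same 4 steps at lower signals, from 4.21 and 4.23 through 4.56 and 4.65 and then 4.80 and 4.83 to 5.28 and 5.28. Its difference was 0.64 ± 0.04 (SE). The number-named mean of Tesk1, 4.41, lay below background. It passed the filter on low signals only through the letter-named arrays, so its size is not exact. In Gm9857, Sfta2, Svbp and Zfp84 the number-named BPS arrays reached or neared the letter-named control arrays, so the series overlapped when treatment was ignored. Svbp, which codes for a binding partner of vasohibins, had 5.32 and 5.18 on the former and 5.26 and 5.33 on the latter, with 4.62 and 4.69 at the low end and 6.06 and 6.08 at the high end.

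The series did not overlap in Ppp3cc, the gamma catalytic subunit of calcineurin (0.88 ± 0.07 SE), or in the ribosomal protein pseudogene Rps2-ps5 (0.82 ± 0.07). The remaining higher genes named were Zfp84, a zinc finger gene (0.68 ± 0.05), Tsga10, a gene of sperm tail assembly (0.63 ± 0.05), and the predicted gene Gm12622 (0.78 ± 0.05). Gm9857 and Sfta2 differed by 0.98 ± 0.07 and 0.89 ± 0.07. The number-named mean of Gm9857, 4.49, lay below background. It too passed the filter only through the letter-named arrays, so its size is not exact. All 12 higher genes passed after quantile normalization, where their differences were 0.47 to 0.85, and with the spread within pairs. Ribosomal protein pseudogenes as a group had 8 of 56 higher and 2 lower, with a median of 0.26, and 0.58 over the 29 above background. Of these 29, 24.1% were higher and 0 lower, beside 12.3% and 1.62% of all probe sets above background. Which probe sets also match the parent gene was not tested.

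The lower calls of the same rank were partly genes with no known use in an oocyte. Trav16n, a variable segment of the T cell receptor alpha locus (chromosome 14, 53351090 to 53351621), had log2 signals of 5.07, 5.18, 5.68 and 5.69 on mv1 to mv4. On mvC, mvD, mvA and mvB it had 4.09, 3.68, 4.38 and 4.33, which are below the background level. Set against that level, the number-named mean of 5.40 was at least 1.84-fold higher (limma adjusted p = 0.00361; 0.0114 with the spread within pairs). Ighv1-80, a variable segment of an immunoglobulin locus, was likewise below background on all 4 letter-named arrays and at least 1.43-fold higher on number-named arrays, with means of 5.04 and 4.0. Such a gene passed the filter on low signals only through the number-named arrays. Igkv4-91, another segment, differed by -0.81 ± 0.09 (SE) with 2 letter-named arrays below background, and Scgb1b3, a secretoglobin gene, by -0.84 ± 0.13. The letter-named mean of Igkv4-91, 4.36, lay below background. It too passed the filter only through the number-named arrays, so its size is not exact. Among markers of blood cells and vessels, 0 of 18 endothelial, erythroid and leukocyte genes passed in limma, 17 of 18 lay at or below background, and their mean level was 4.17 to 4.23 on number-named and 4.17 to 4.24 on letter-named arrays.

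Some genes of general cell function with signals above background on both series were lower on letter-named arrays. Cltb, the clathrin light chain B gene (chromosome 13, 54592386 to 54611373), measured 8.45, 8.36, 8.24 and 8.35 on mv1 to mv4 and 7.72, 7.77, 7.74 and 7.79 on mvC, mvD, mvA and mvB. The letter-named values lay within 0.1 of each other and well below all number-named values, with a difference of -0.59 ± 0.05 (SE, limma adjusted p = 0.00466). Cox10, which makes the heme of cytochrome c oxidase (chromosome 11, 63962627 to 64079472), measured 7.27, 7.31, 7.77 and 8.16 against 6.25, 6.27, 7.26 and 7.10. Here the BPS arrays were the higher ones in both series, the series did not overlap by a margin of 0.01, and the difference was -0.91 ± 0.10 (SE, limma adjusted p = 0.00647). Phf3, a regulator of RNA polymerase II transcription, fell by 0.77 ± 0.11 (SE), and Pnma5, of the paraneoplastic antigen family, by 0.68 ± 0.06. AY358078, a gene without a role that is given here, measured 7.06 ± 0.07 and 6.05 ± 0.18 (SD, n = 4). Nearer to background, Ube2h, a ubiquitin-conjugating enzyme, fell by 0.91 ± 0.11 (SE) from a mean of 5.33 to 4.42, with 3 letter-named arrays below background. Gm9112 and Gm15315 differed by -1.15 ± 0.08 and -0.84 ± 0.05 (SE) with 3 and 2 letter-named arrays below background. The letter-named means of Ube2h, Gm9112 and Gm15315 lay below background. These genes passed the filter on low signals only through the number-named arrays, so their sizes are not exact. The accessions of Gm15315 match Defa34, a defensin gene. These 12 lower genes also passed after quantile normalization and with the spread within pairs.

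**Figure D3:**
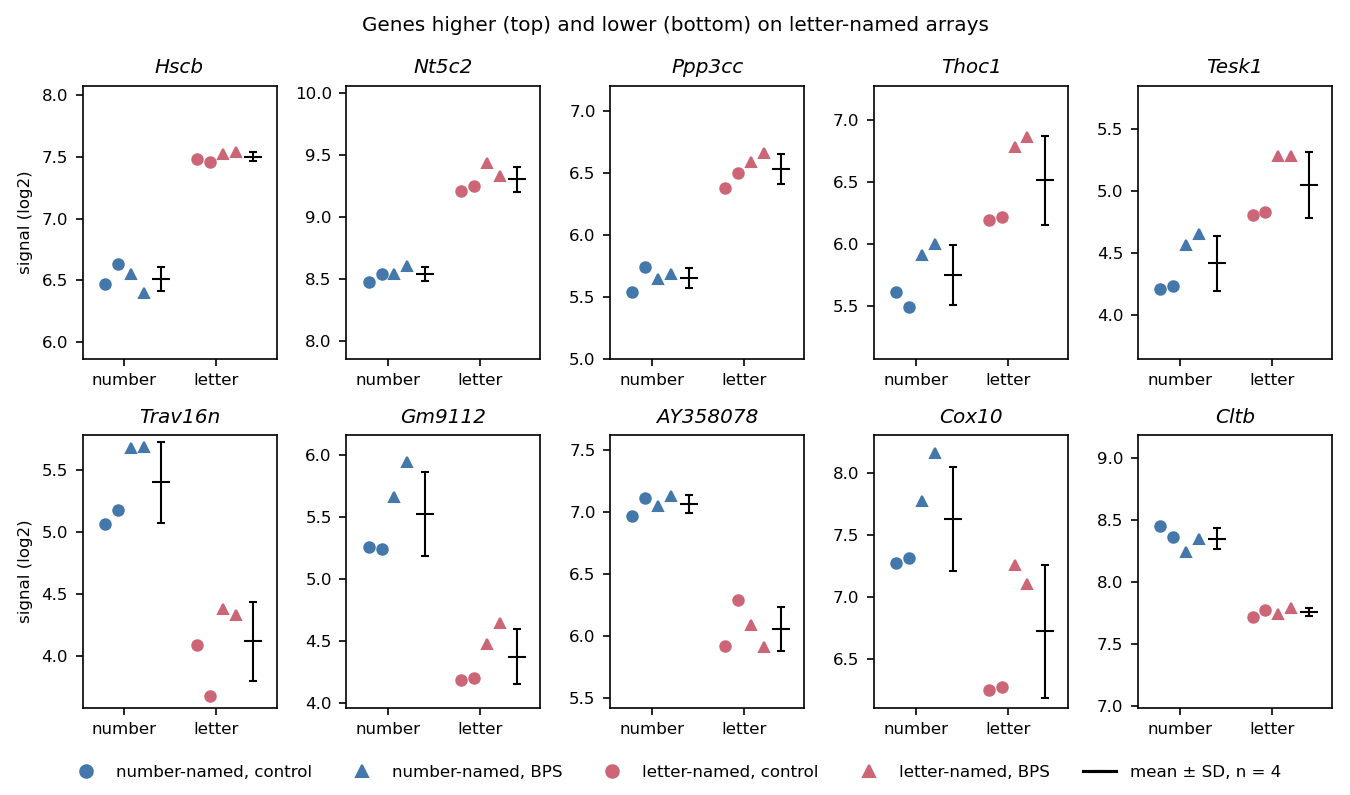
Log2 signal (vertical axes, each spanning 2.2 log2 units) of 5 genes called higher and 5 called lower on letter-named arrays, by array series (horizontal axis), with circles for control and triangles for BPS arrays and a bar for the mean ± SD (n = 4). Hscb and Cltb separate the series with little difference by treatment, while Thoc1, Tesk1 and Cox10 show 4 levels.

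Of 39 genes of growing and full-grown oocytes, 36 lay above background and 3 passed. Of these 36, 1 was higher (2.78%, beside 12.3% of all probe sets above background) and 2 were lower (5.56%, beside 1.62%). Their median difference was -0.05, against 0.14 over all probe sets above background. Of all 39, 0 were higher and 3 lower after quantile normalization, and the median was -0.15. Zp3, a zona pellucida protein, stood at 10.97 ± 0.04 and 10.95 ± 0.07 (SD, n = 4), and the oocyte growth factor gene Gdf9 at 9.86 ± 0.08 and 9.82 ± 0.05. Neither passed, with differences of -0.02 ± 0.05 and -0.04 ± 0.05 (SE). Bmp15, the partner of Gdf9, gave -0.18 ± 0.06, and Kit, the receptor for the granulosa cell ligand, gave -0.33 ± 0.10 (limma adjusted p = 0.134 and 0.115). Ddx4, a germ cell RNA helicase, gave -0.08 ± 0.13.

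The oocyte genes that passed were Bcl2l10, Zar1 and Izumo1r. Bcl2l10, an oocyte member of the Bcl-2 family, had 9.32, 9.38, 9.34 and 9.32 on mv1 to mv4 and 9.07, 8.91, 9.06 and 9.03 on mvC, mvD, mvA and mvB, and fell by 0.32 ± 0.05 (SE, limma adjusted p = 0.0163; 0.0449 with the spread within pairs). Its arrays separated by series alone. Zar1, a maternal-effect gene that masks stored messenger RNA, had 11.29, 11.45, 11.03 and 10.94 against 11.11, 10.91, 10.56 and 10.70, and fell by 0.36 ± 0.07 (limma adjusted p = 0.0282; 0.0672 with the spread within pairs). The number-named BPS arrays and letter-named control arrays overlapped for Zar1. Izumo1r, the egg receptor of sperm, rose by 0.26 ± 0.05 (limma adjusted p = 0.0275), but not after quantile normalization (0.255) or with the spread within pairs (0.0711).

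Genes that mark steps of oocyte growth and maturation had 1 to 3 calls per list. Among 26 genes of metaphase II arrest, the spindle and maturation, all above background, Cnot7, a deadenylase, was the only one that passed (0.30 ± 0.06 SE, limma adjusted p = 0.0291; 0.0526 to 0.0781 without 1 array), and the list's median was 0.08, or -0.04 after quantile normalization. Mos, the kinase of metaphase II arrest, stood at 9.06 ± 0.10 and 9.15 ± 0.16 (SD, n = 4). Btg4, an adaptor for maternal RNA decay, stood at 10.34 ± 0.06 and 10.38 ± 0.12. Fbxo43, an inhibitor of the anaphase-promoting complex, gave -0.07 ± 0.05 (SE), Ccnb1, cyclin B1, 0.20 ± 0.08, and Aurkb, a spindle checkpoint kinase, 0.45 ± 0.11, and none of the 3 passed. Without quantile normalization Mos and Btg4 differed by 0.09 and 0.03, and with it by -0.03 and -0.01. The list's share of higher calls was 3.85%, beside 12.3% of all probe sets above background.

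Among 23 genes of prophase arrest and meiotic resumption, Ccnb3 (cyclin B3, 0.46 ± 0.09 SE) and Cdc25c (a phosphatase that activates cyclin-dependent kinase, below background on all 4 number-named arrays and at least 1.08-fold higher) were higher on letter-named arrays and Ppp2ca, a catalytic subunit of protein phosphatase 2A, was lower (-0.39). Of the 17 members above background 5.88% were higher and 5.88% lower, beside 12.3% and 1.62% of all probe sets above background. With the spread within pairs 0 of the 23 passed in limma, and Ccnb3 and Cdc25c had adjusted p-values of 0.0191 to 0.0858 and 0.0298 to 0.0825 when 1 array was left out. Ppp2ca lies outside the naming rule and was named after its values were seen, as were all other genes below that stand beyond the first pair of their list. Of 19 genes of germ cells and early growing oocytes, Sycp3, a synaptonemal complex protein, passed. It measured 5.78, 5.58, 5.74 and 6.05 on mv1 to mv4 and 6.28, 6.17, 6.55 and 6.45 on mvC, mvD, mvA and mvB, and rose by 0.58 ± 0.08 (SE, limma adjusted p = 0.013; 0.0338 with the spread within pairs; 0.056 after quantile normalization). Figla, a transcription factor of the early follicle, gave 0.48 ± 0.12 and did not pass (limma adjusted p = 0.0594). The list's median was 0, or 0.06 over its members above background. Of those 14 members 7.14% were higher and 0 lower, beside 12.3% and 1.62%.

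Of 23 maternal-effect genes, all above background, only Zar1 passed (4.35% lower, beside 1.62%). The median was -0.07, or -0.19 after quantile normalization. Nlrp5, of the subcortical maternal complex, differed by 0.03 ± 0.17 (SE), or -0.09 after quantile normalization. Among 30 genes of messenger RNA storage and decay the exonuclease Xrn1 (0.30 ± 0.06) and Cnot7 were higher and Zar1 was lower, and 0 of the 30 passed in limma with the spread within pairs. Of the 28 above background 7.14% were higher and 3.57% lower, beside 12.3% and 1.62% of all probe sets above background. In the oocyte families Obox, Oog, Fbxw, Nlrp4, Nlrp9 and Tcl1b, 2 of 42 were higher, Fbxw16 (0.62 ± 0.11) and Oog3 (0.36 ± 0.07). Neither passed with the spread within pairs (limma adjusted p = 0.0601 and 0.0837), and leaving out 1 array gave 0 without mv1, mvA, mvB or mvC and 1 without mv2, mv3, mv4 or mvD. Fbxw16 and Oog3 were 5.56% of the 36 members above background, beside 12.3%. Of 26 genes of the 2-cell embryo, Arg2, an arginase, was higher (0.36 ± 0.06), while Zscan4c, which marks the embryo's first transcription, was below background on both series at 4.04 ± 0.18 and 4.12 ± 0.11 (SD, n = 4). Arg2 was 14.3% of the 7 members above background, beside 12.3%.

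Markers of the follicle cells were mostly at background on both series. Of 22 granulosa and cumulus cell genes, 6 lay above background, 2 were higher (33.3% of the 6, beside 12.3%) and 0 lower. The median difference over the 22 was 0.09, or 0.03 after quantile normalization. Over the 6 above background it was 0.35, or 0.17 after quantile normalization. The list's mean level ran from 4.58 to 4.70 on number-named and from 4.72 to 4.91 on letter-named arrays. Fewer cells of a type and less RNA per cell cannot be told apart in such pooled RNA. Fshr, the follicle-stimulating hormone receptor, stood at 4.26 ± 0.05 and 4.26 ± 0.11 (SD, n = 4), Cyp19a1, aromatase, at 4.30 ± 0.09 and 4.20 ± 0.12, and Kitl, the Kit ligand, at 4.23 ± 0.14 and 4.33 ± 0.10, all below background. Amh, anti-Müllerian hormone, was below background on every array and its ranges did not overlap, with 3.96 to 4.05 against 4.13 to 4.29 (difference 0.16 ± 0.05 SE, limma adjusted p = 0.115).

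The granulosa list's passing genes were Serpine2, a protease inhibitor, and Nr5a2, a nuclear receptor. Serpine2 measured 7.83, 8.02, 7.92 and 8.06 on mv1 to mv4 and 8.26, 8.64, 8.70 and 8.59 on mvC, mvD, mvA and mvB, and rose by 0.59 ± 0.09 (SE, limma adjusted p = 0.0182; 0.041 with the spread within pairs; 0.0475 after quantile normalization). Nr5a2 rose from 6.20 ± 0.08 to 6.52 ± 0.12 (SD, n = 4; limma adjusted p = 0.0307, and 0.0586 with the spread within pairs). Without mv1, mv3, mv4, mvA or mvB 0 of the list passed in limma. Inha, the inhibin alpha subunit, did not pass. Its values were 4.50, 4.86, 5.24 and 5.05 on mv1 to mv4, 5.32, 5.26 and 5.34 on mvC, mvD and mvA, and 6.56 on mvB alone, for a difference of 0.71 ± 0.24 (SE, limma adjusted p = 0.146). Whether cells of the cumulus had a part in these values was not tested.

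Genes of the expanding cumulus gave 0 calls of 19 in limma. Has2, Ptx3 and Tnfaip6, which build its hyaluronan matrix, lay below background on every array, with group means of 3.91 to 4.08. The 1 member above background was Rgs2, a regulator of G protein signalling, at 9.62 ± 0.05 and 9.77 ± 0.10 (SD, n = 4). Theca and stroma genes gave 0 calls of 22 and 2 above background, and trophoblast and blastocyst genes 0 calls of 13.

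**Figure D4:**
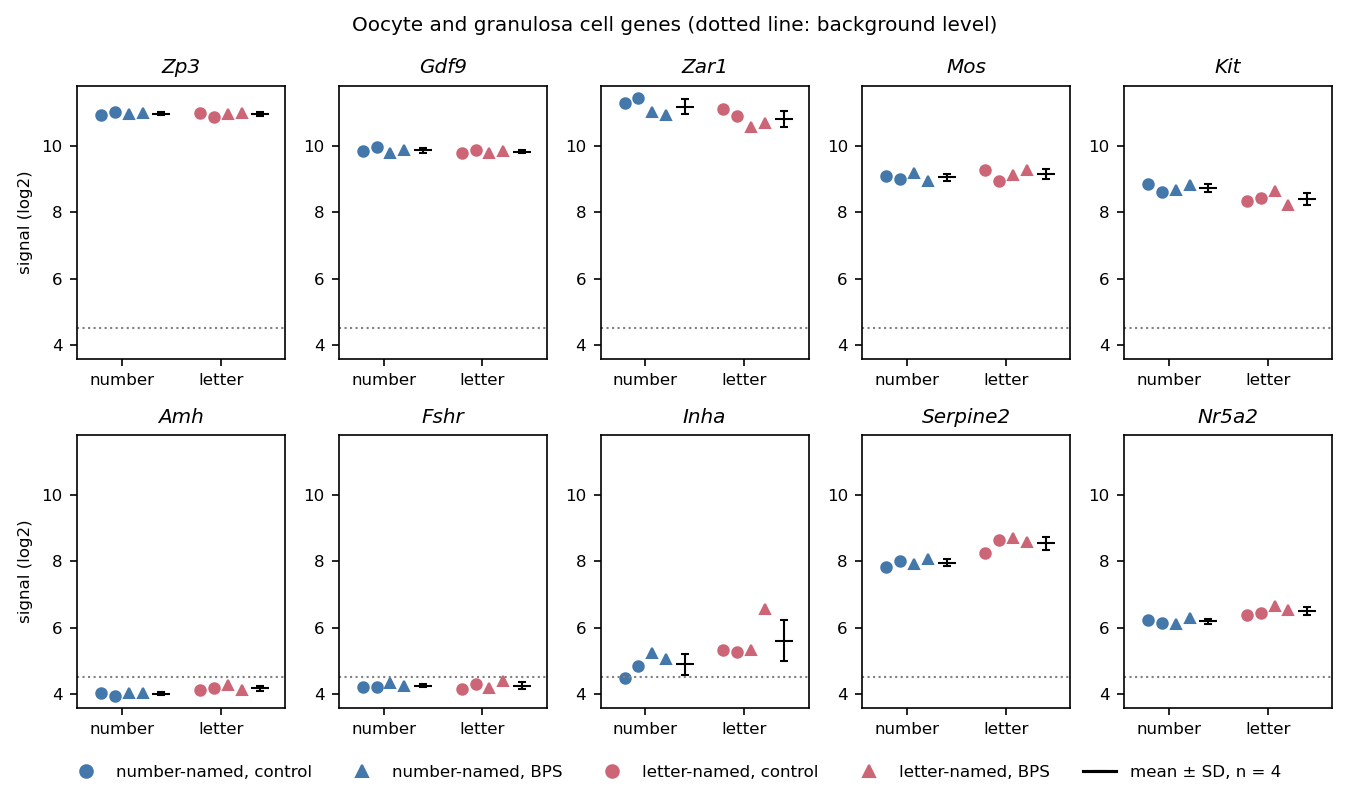
Log2 signal (vertical axes, common scale) of 5 oocyte and 5 granulosa cell genes by array series, with circles for control and triangles for BPS arrays, a bar for the mean ± SD (n = 4) and the background level of 4.53 dotted. Zp3 and Gdf9 stay at 10.95 to 10.97 and 9.82 to 9.86, Amh and Fshr lie below background on both series, and Inha is highest on mvB.

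The lists of nuclear genes for mitochondrial ribosomal proteins and for respiratory subunits had calls in 1 direction on the deposited values. Cox10, which is in neither list, was lower. Of 75 mitochondrial ribosomal protein genes, 64 lay above background and 16 were higher (25% of those 64, beside 12.3% of all probe sets above background), with 0 lower. The median difference was 0.19, or 0.25 over those above background, and fell to 0.09 after quantile normalization, where 5 were higher and 1 lower. Mrps17, of the small mitochondrial subunit, measured 7.47, 7.47, 7.79 and 7.71 on mv1 to mv4 and 7.90, 7.92, 8.19 and 8.37 on mvC, mvD, mvA and mvB. Its series did not overlap, and it rose by 0.49 ± 0.05 (SE, limma adjusted p = 0.00738; 0.0226 with the spread within pairs; 0.0673 after quantile normalization). Mrpl3, of the large subunit, rose by 0.37 ± 0.06, and the sizes of the passing members ran up to 0.89 in Mrpl52. With the spread within pairs 5 of the 64 above background were higher, beside 5.63% of all probe sets above background. Leaving out 1 array moved the count of 16 to 2 without mv1 or mv3, to 5 to 9 without mv4, mvA, mvB, mvC or mvD, and to 15 without mv2.

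Nuclear subunits of the respiratory complexes gave 13 higher and 0 lower of 78, or 20% of the 65 above background, with a median of 0.24. Ndufa8, of complex I, measured 8.32, 8.35, 8.59 and 8.40 on mv1 to mv4 and 8.66, 8.88, 9.02 and 9.02 on mvC, mvD, mvA and mvB, a difference of 0.48 ± 0.07 (SE, limma adjusted p = 0.0121; 0.125 after quantile normalization). Cox5b, of complex IV, rose by 0.38 ± 0.06, and Ndufa1, of complex I, by 0.86. After quantile normalization 1 of the 78 was higher, Ndufa1, and the median was 0.10. With the spread within pairs 6 were higher. Leaving out 1 array gave counts of 2 or 3 without mv1, mv3 or mv4, 6 to 9 without any 1 letter-named array, and 12 without mv2.

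Transcripts of the mitochondrial genome varied widely between arrays of a series. None of 10 mitochondrially encoded protein genes passed in limma, although the median difference was 0.49. ND4L, a complex I subunit, measured 5.02, 6.46, 5.89 and 6.40 on mv1 to mv4 and 6.99, 6.15, 7.07 and 7.04 on mvC, mvD, mvA and mvB, and ND2, another, 5.41, 6.63, 6.07 and 6.35 against 6.91, 6.11, 6.81 and 6.80. In both genes mv1 was the lowest of the number-named and mvD the lowest of the letter-named arrays. The list's mean level was 6.81 on mv1 and 7.24 on mvD, and 7.30 to 8.05 on the other 6 arrays. The median difference was 0.25 without mv1 and 0.72 without mv2. Among mitochondrial transfer and ribosomal RNA genes, 3 of 21 were higher and 1 lower, mt-Ts1, which fell by 0.79 ± 0.13 (SE). Those higher were mt-Tq (1.38), mt-Tn (1.07) and mt-Ty, which lay below background on all 4 number-named arrays and was at least 1.15-fold higher on letter-named arrays. Of these, mt-Ty and mt-Ts1 passed with the spread within pairs, while mt-Tq and mt-Tn did not (limma adjusted p = 0.075 and 0.0926). The count of 3 was 7 without mv2, 2 without mvC and 1 without any other array. Of the 18 members above background 11.1% were higher and 5.56% lower, beside 12.3% and 1.62% of all probe sets above background.

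Genes of RNA decay included several higher calls. Of 24 genes of the RNA exosome and of nonsense-mediated decay, 22 lay above background, 6 were higher (27.3% of the 22, beside 12.3%) and 1 lower, and the median was 0.17, or 0.05 after quantile normalization. Exosc1, an exosome cap subunit, measured 9.01, 9.08, 9.20 and 9.15 on mv1 to mv4 and 9.66, 9.55, 9.69 and 9.85 on mvC, mvD, mvA and mvB. It rose by 0.58 ± 0.05 (SE, limma adjusted p = 0.00546; 0.0183 with the spread within pairs; 0.0105 after quantile normalization). Smg5, of nonsense-mediated decay, rose by 0.40 ± 0.04, and Dis3, Upf3b, Exosc3 and Exosc9 by 0.41 to 0.46. The number-named mean of Smg5, 4.5, lay below background, so its size is not exact. The lower gene was Dis3l, a cytoplasmic exonuclease gene, which fell by 0.26 (limma adjusted p = 0.0403) but did not pass with the spread within pairs (0.0707) or when any 1 array was left out. With the spread within pairs Exosc1, Smg5 and Dis3 passed, and when 1 array was left out 2 to 4 of the 24 were higher. After quantile normalization 2 of the 24 were higher and 1 lower, and 1 was higher with the spread within pairs as well.

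Histone cluster genes, whose messenger RNAs mostly lack a poly(A) tail, had 8 of 59 higher and 1 lower. Of the 20 above background 6 were higher (30%, beside 12.3% of all probe sets above background) and 1 lower (5%). Over those 20 the median difference was 0.43, and 0.25 after quantile normalization. Of all 59, 7 were higher and 1 lower after quantile normalization. Hist1h3e, an H3 gene, measured 4.35, 4.59, 4.88 and 4.79 on mv1 to mv4 and 5.13, 5.17, 5.62 and 5.61 on mvC, mvD, mvA and mvB, a difference of 0.73 ± 0.06 (SE, limma adjusted p = 0.00466). Hist1h2ba, an H2B variant gene of germ cells, had 9.42, 9.76, 9.87 and 9.73 against 10.19, 10.15, 10.30 and 10.51. Its series did not overlap either, with a difference of 0.59 (limma adjusted p = 0.0138; 0.0354 with the spread within pairs). Hist4h4 rose by 1.01 and Hist1h2bl by 0.96, while Hist1h2bp fell by 0.46 ± 0.06. The letter-named mean of Hist1h2bp, 4.43, lay below background, so its size is not exact. With the spread within pairs 6 of the 59 were higher, and when 1 array was left out, 5 to 8 were higher and 1 was lower (5 without mv3). Near-identical histone genes can share probes, so single members are uncertain.

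Several housekeeping lists had higher calls at about the share of all probe sets above background, 12.3%. Of members above background 13.3% were higher among spliceosome and 12.9% among proteasome genes, 6 of 51 among translation factors, and 2 of 17 among tubulins and actins. Cytosolic ribosomal protein genes had a smaller share, 4.55%. Spliceosome genes had 4 of 36 higher, Snrpb2 (0.56 ± 0.06 SE), U2af2 (0.37 ± 0.06), Snrpg and Snrpe. Proteasome genes had 4 of 38 higher, Psmd9 (0.70 ± 0.07), Psmc1 (0.48 ± 0.08), Psma2 and Psmd4, and translation factors had 6 of 64, with Eif2b2 at 0.81 ± 0.11 and Eif4a1, an RNA helicase of initiation, at 0.87 ± 0.16. None of these 3 lists had a lower call on the deposited values. With the spread within pairs 2 spliceosome, 4 proteasome and 1 translation factor gene were higher. Cytosolic ribosomal protein genes had 4 of 95 higher, Rpl10l, Rpl39l, Rpl28 and Rpl34, of which Rpl28 and Rpl34 lay below background on all 4 number-named arrays and had means of 4.47 and 4.64 on letter-named arrays. That count was 2 with the spread within pairs, 1 without mv3 or mv4, 2 without mv1, mvA or mvC, and 7 without mv2. Tubulin and actin genes had 2 of 25, Tubg1 (0.50 ± 0.07) and Tubb2b (0.56 ± 0.09). With 1 array left out, there were 1 to 4 higher spliceosome genes (1 without mv1, mv4, mvA or mvB, and 2 without mv3, mvC or mvD), 2 to 4 proteasome genes (2 without mv1) and 1 to 7 translation factors (1 to 3 without any array but mv2).

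Among wider families, 26 of 369 Zfp zinc finger genes were higher and 0 lower. Of the 140 above background 21 were higher (15.0%, beside 12.3%), with Zfp959 at 0.89 ± 0.08 (SE). Of the 369, 11 were higher with the spread within pairs and 9 after quantile normalization, and leaving out 1 array gave 5 to 7 higher without mv1, mv3 or mv4, 11 to 16 without mvD, mvA or mvB, and 23 without mv2 or mvC. Kinesins had 1 of 37, Kif18a (0.69 ± 0.10), a motor of chromosome congression. Solute carriers had 5 of 367 (2 with the spread within pairs), among them Slc35a5 (0.80 ± 0.13) and Slc43a3 (0.65 ± 0.09). Of members above background 5.26% of kinesins and 2.04% of solute carriers were higher, both below 12.3%. Ubiquitin-conjugating enzymes and ubiquitin-specific proteases had 4 of 86 higher, with Usp16 at 0.37 ± 0.05, and 1 lower, Ube2h, or 6.67% and 1.67% of the 60 above background. The count of 4 was 0 after quantile normalization, 2 with the spread within pairs, 1 or 2 without any array but mv2, and 7 without mv2. Of 41 chromatin enzyme genes the DNA methyltransferase gene Dnmt3b was higher (0.31 ± 0.07), but did not pass when any 1 array was left out (limma adjusted p = 0.0545 to 0.112), and 0 of 22 genes of contact and signalling between oocyte and granulosa cells passed in limma. Dnmt3b was 3.33% of the 30 chromatin enzyme genes above background, beside 12.3%.

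Genes that respond to handling or to damage lay mostly at background. Of 25 immediate-early and heat shock genes 0 passed in limma, 6 lay above background, and the median was 0.07, or 0.04 after quantile normalization. Over those 6 the median was 0.07, or -0.06 after quantile normalization. Fos stood at 4.08 ± 0.08 and 4.04 ± 0.04 (SD, n = 4), Egr1 at 4.47 ± 0.07 and 4.56 ± 0.07, and the heat shock gene Hspa1a at 4.04 ± 0.04 and 4.10 ± 0.07. Group means of all 3 lay within 0.1 of each other between the series and at or near the background level. Of 26 apoptosis and p53 genes, Diablo, which codes for an inhibitor of apoptosis inhibitors, rose by 0.36 ± 0.06 (SE) and Bcl2l10 fell, each 10% of the 10 above background, beside 12.3% and 1.62% of all probe sets above it. RNA integrity numbers above 8 were required for every array, per the labels' protocols, and no integrity value per array was used here.

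**Figure D5:**
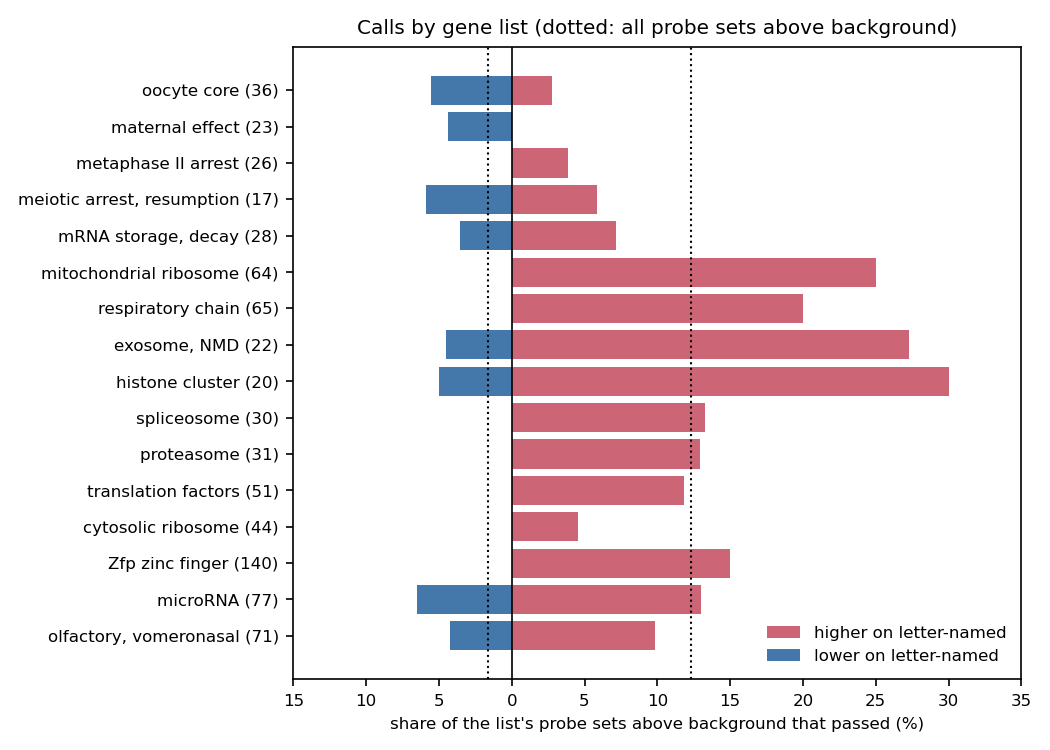
Share of each list's probe sets above background (number in brackets) that passed as higher (right) or lower (left) on letter-named arrays, in percent, with the shares of all probe sets above background (12.3% and 1.62%) dotted. Histone cluster, exosome and mitochondrial ribosome genes have shares of 30%, 27.3% and 25% higher on the deposited values, and oocyte core genes 2.78%, while after quantile normalization the split over all probe sets evens out.

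Small RNA genes were called in both directions. Of 502 microRNA genes, 77 lay above background. These had 13.0% higher and 6.49% lower, beside 12.3% and 1.62% of all probe sets above background. Over all 502, 14 were higher and 12 lower, and after quantile normalization 9 were higher and 13 lower. With 1 array left out, 7 to 15 were higher and 5 to 17 lower, with 7 of each without mv1 and 5 lower without mvB, and with the spread within pairs 9 were higher and 6 lower. At a mean above background in at least 1 series and at least 1.5-fold, 4 were lower and 6 higher. Whether the signals came from mature or precursor RNA was not tested. The mature sequences below are those of the lower genes let-7a-1 and Mir3473c and of the higher genes Mir1936, Mir2137 and Mir329 (RefSeq, GRCm38.p6), shown to compare their seeds, bases 2 to 8, in capitals.
mmu-let-7a-5p: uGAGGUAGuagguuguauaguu
mmu-miR-3473c: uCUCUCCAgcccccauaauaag
mmu-miR-1936: uAACUGACcugcugugaacuggc
mmu-miR-2137: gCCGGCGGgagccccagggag
mmu-miR-329-3p: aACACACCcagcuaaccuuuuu

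No seed was shared among these 5. Mirlet7a-1, of the let-7 family (chromosome 13, mature 5p strand at 48538239 to 48538260), measured 7.44, 8.37, 6.81 and 7.40 on mv1 to mv4 and 7.05, 6.53, 5.94 and 5.34 on mvC, mvD, mvA and mvB. The series overlapped through mv3 and mvC, and the difference was -1.29 ± 0.26 (SE, limma adjusted p = 0.035; 0.0653 with the spread within pairs). Mir3473c (chromosome 1) measured 9.94, 9.73, 9.04 and 8.49 against 8.68, 8.84, 7.33 and 7.58. The series overlapped through mv4, mvC and mvD, and the difference was -1.19 ± 0.13 (limma adjusted p = 0.00744; 0.0208 with the spread within pairs). Mir466g and Mir466h fell by 1.16 ± 0.15 and 1.09 ± 0.17. The letter-named mean of Mir466g, 4.09, lay below background. It passed the filter on low signals only through the number-named arrays, so its size is not exact.

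Those higher were Mir1946a (0.81 ± 0.18), Mir28c (0.70 ± 0.10), Mir329 (0.70 ± 0.16), Mir2137 (0.63 ± 0.10), Mir1936 (0.61 ± 0.10) and Mir684-1 (0.60 ± 0.09), and Mir684-2 rose by 0.53 ± 0.04. The number-named mean of Mir1936, 4.5, lay below background, so its size is not exact. Mir684-1 did not overlap between the series, with 9.10, 9.18, 9.33 and 8.95 against 9.58, 9.78, 9.79 and 9.79. Small nucleolar and Cajal body RNA genes picked by symbol had 5 of 80 higher and 0 lower, or 3 higher with the spread within pairs. This is a smaller set than the small nucleolar RNA genes by reference type above, which had calls in both directions. Of the 17 genes above background picked by symbol, 17.6% were higher, beside 12.3% of all probe sets above background. Snord82 rose by 0.72 ± 0.09, and Snord71, below background on all 4 number-named arrays, was at least 1.23-fold higher. The 7SK RNA gene Rn7sk measured 10.76 ± 0.12 and 10.95 ± 0.06 (SD, n = 4) and did not pass. Of 135 nuclear 5S ribosomal RNA copies 4 were lower, among them n-R5s165 (-0.63 ± 0.08), and 1 higher. Of the 24 above background 12.5% were lower, beside 1.62% of all probe sets above background, and 0 were higher. The letter-named mean of n-R5s165, 4.32, lay below background, so its size is not exact.

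Receptor genes that an oocyte is not known to use gave a measure of calls near background. Of 1440 olfactory and vomeronasal receptor genes, 14 were higher (0.972%) and 21 lower (1.46%), beside 4.56% and 0.949% of all probe sets, and 71 lay above background. Predicted genes with Gm numbers had 236 of 6520 higher (3.62%) and 109 lower (1.67%). RIKEN genes had 80 of 2261 higher (3.54%) and 11 lower (0.487%). Keratin, defensin and immunoglobulin segment genes had 7 of 349 in each direction (2.01%). Probe sets without a symbol had 67 of 2599 in each direction (2.58%). Above background, 13.9% of Gm and 21.6% of RIKEN genes were higher, beside 12.3% of all probe sets there. Lower were 4.45% and 1.1%, beside 1.62%. For keratin, defensin and segment genes these shares were 7.5% higher and 5.0% lower. Probe sets without a symbol had 7.95% higher and 7.11% lower. The receptor genes had, with the spread within pairs, 7 higher and 6 lower, the Gm genes 97 and 44, the RIKEN genes 37 and 4, and the keratin, defensin and segment genes 0 and 3.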

How the data were processed

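RNA of 8 oocyte samples was measured on Affymetrix MoGene 2.1 ST arrays. The authors deposited log2 signals per probe set, summarised at gene level with RMA and annotated with NetAffx release 36 on mm10, per the file headers, with the Transcriptome Analysis Console named in the submitters' processing notes. The 8 signal columns of the authors' workbook equalled the columns of the series matrix value for value, which ties array names to sample titles. Array series was read from the column names. The members, gene lists, tests and naming rule were chosen with earlier results of these data known.

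Letter minus number was fitted on the deposited log2 values with treatment as a covariate in limma 3.58.1 (lmFit, eBayes) under R 4.3.3, two-sided, with Benjamini-Hochberg adjustment over 34472 probe sets and a threshold of 0.05. The script was tested on simulated data. Single symbols were on 29971 probe sets, 1902 had several and 2599 none. Symbols were matched to the GRCm38.p6 table by accession (23010), symbol (4034) or synonym (145), and 2782 were not matched. 962 probe sets share all values with another and were kept. Named genes were up to 12 per direction with the smallest p among calls of at least 1.5-fold with a mean above background in at least 1 series (at most 2 predicted, RIKEN or small RNA symbols), the 2 members of each of 40 lists with the smallest p, and a list of stage and cell markers. Of the genes this rule selects, 97 are reported. Tables and plots used Python 3.11.15, pandas 2.3.3 and matplotlib 3.10.9.

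Alternatives were quantile normalization, median centring, 2 filters on low signals, no treatment term, trended and robust eBayes, a random replicate block and leaving out each array. The spread within pairs of like arrays, with and without quantile normalization, was added after seeing the data. Replicate numbers 1 and 2 are number-named and 3 and 4 letter-named, so a number lies within 1 series. Same-numbered control and BPS arrays correlated in their deviations from the group means (r = 0.519, 0.383, 0.173 and 0.362), a deviation that includes the series difference. Precision is limited by the 4 arrays per series.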

Additional observations from a re-analysis of the deposited data

Results flagged for a closer look

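In 12 of 220 groups of 4 arrays examined, 1 array stood apart from the other 3 by more than Dixon's critical value for 4 values allows. Chance flags about 1 in 20 groups. Among letter-named arrays mvB was high for Inha (6.56), Ccnb1 (10.02) and Rn7sk (11.04), mvD was low for ND2 (6.11), ND4L (6.15) and the mean level of the oocyte genes (8.60), mvA was high in its median signal (4.21), and mvC was low in the mean level of endothelial and blood markers (4.17). Among number-named arrays mv1 was low for Aurkb (4.66), mv2 was high for Pnma5 (6.58), mv3 was high for Arg2 (7.44) and mv4 was high for Slc43a3 (6.42).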

How the results depend on the processing

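The count of 1899 probe sets past the threshold became 1373 after median centring, 979 after quantile normalization, 2034 and 1724 among probe sets above the median or the background level, 1409 with trended and robust eBayes, 24 without the treatment term, 801 with the spread within pairs of like arrays, and 227 with that spread after quantile normalization (100 higher, 127 lower). A random replicate block, with numbers nested in the series, gave 1204. Leaving out 1 array gave 714 to 1716, with 714 without mv1, 1716 without mv2, 729 without mv3, 814 without mv4, 1561 without mvC, 1059 without mvD, 918 without mvA and 864 without mvB. The count of 540 with at least 1.5-fold became 293 after quantile normalization, 19 without the treatment term, 361 within pairs and 142 within pairs after quantile normalization, and 306 to 680 without 1 array (324 without mv3, 334 without mvB). The test of series by treatment gave 0 calls in each of its 4 settings, with 20 to 23 probe sets at an unadjusted p under 0.05 over all probe sets. Of 69 named genes that passed, 48 passed after quantile normalization, 58 within pairs, 9 without the treatment term and 66 with the replicate block, and 46 passed in all 8 fits that left out 1 array. None of the 69 turned direction in any of these fits. Small differences turned after quantile normalization, with either spread, in Btg4 (-0.01), Fshr (-0.03), Mos (-0.03) and Nlrp5 (-0.09), and in Fshr after median centring (-0.02). Leaving out 1 array turned Ddx4 (0.04 without mv1), Zp3 (0.01 without mvD), Fshr (-0.04 at the lowest) and Nlrp5 (-0.14 at the lowest). The causes were not tested. Signals near background limit what the lists of somatic cell markers can show.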
